A study of Pelodiscus sinensis with 8 samples.

Results

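Cadherins, protocadherins and the catenins that bind their tails were followed in embryonic interdigital tissue of the Chinese soft-shell turtle, Pelodiscus sinensis, an aquatic species with webbed feet. Members were chosen by symbol in the deposited expression table: the numbered CDH genes, PCDH genes, FAT, DCHS and CELSR giants, desmosomal DSG and DSC genes, and alpha and delta catenins, without CDH5. The rule found 34 of the 19328 genes in the table, and 33 of them had enough counts to be tested. Only 11730 of these genes carried a symbol, and the other 7598 could not be found by the rule. Further members of the families may lie among the genes without a symbol. Subfamily counts, ranks and shares given below therefore cover the 34 genes and not the whole families. All embryos were labelled wild type and staged as TK 19, in the Tokita and Kuratani scheme for this turtle. The hindlimb gave 4 libraries, which the labels tag "anti-ICD" under genotype, and the forelimb gave 4 libraries, tagged "ICD". The labels do not spell the term out, and tag and limb cannot be told apart. In each limb web 1 lies next to digit I and web 4 next to digit V, with 1 library per web. Each library pooled 40 pieces of left and right tissue from the same 20 individuals. The 4 libraries of a limb are therefore different positions and not repeats of 1 position, and each p-value reflects variation among pools, not among animals.

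Classical cadherins are calcium-dependent adhesion proteins that join cells of like kind. Their tails bind beta and delta catenins, and alpha catenin links that complex to actin. Type I members such as N-cadherin carry strong adhesion, whereas type II members such as CDH11 mark mesenchyme and groups of neurons. Protocadherins adhere weakly and shape cell contact and movement, and the giant FAT and CELSR proteins orient cells within a sheet. In the limb bud of chick and mouse, N-cadherin acts when mesenchyme condenses into cartilage, and CDH11 is found widely in loose mesenchyme.

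Libraries held 53116512 to 65849337 counts, and log2 CPM (counts scaled for depth, with edgeR's TMM factors) correlated between libraries at 0.955 to 0.981. The mesenchymal marker list reached a summed 3665 to 4462 TPM (the authors' values, scaled for gene length and depth) in hindlimb libraries and 3567 to 4955 TPM in forelimb libraries, with 6 of its 8 genes under a symbol. Epidermal markers, with 8 of 14 genes under a symbol, reached 974 to 2667 TPM in the hindlimb and 1006 to 3810 TPM in the forelimb. RNA of mesenchyme and of skin was thus present in every library. No marker gene under a symbol was at 0 counts in all libraries. E-cadherin (CDH1), P-cadherin (CDH3), FAT4, DCHS1, DCHS2 and the desmosomal DSG and DSC genes were not matched by symbol and were not analysed here. Macrophage markers summed to 91.5, 61.9, 46.3 and 51.0 TPM in hindlimb webs 1 to 4 and to 107, 74.3, 41.7 and 48.1 TPM in forelimb webs 1 to 4, and 4 of the 6 fell toward web 4 in the slope test described below. Pigment cell markers (6 of 7 under a symbol, 1 falling) summed to 71.5 to 83.1 TPM in the hindlimb and 91.5 to 121 TPM in the forelimb. Red blood cell markers (2 of 5, none passing) summed to 561 to 1178 TPM in the hindlimb and 1116 to 1895 TPM in the forelimb. The mesenchymal list did not move as one: LUM rose (0.67 ± 0.0523 log2 units per web), PRRX1 fell (-0.30 ± 0.0635) and 4 did not pass. The part of these cell types in the results below was not tested.

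CDH11, the type II cadherin of mesenchyme, had the highest level of the 34 genes, with 536 ± 52.97 TPM in the hindlimb and 570 ± 43.7 TPM in the forelimb (SD, n = 4 webs each). It took 39% of the summed TPM of the members, which ran from 1291 to 1479 TPM in hindlimb libraries and from 1354 to 1609 TPM in forelimb libraries. Junction catenins followed, with the protocadherin PCDHGC5 ranked between them by mean TPM. CTNNA1, the alpha catenin that binds actin in most tissues, averaged 175 ± 9.01 TPM in the hindlimb and 195 ± 10.2 TPM in the forelimb. CTNND1, the p120 catenin that keeps cadherins at the membrane, averaged 141 ± 4.86 TPM in the hindlimb and 151 ± 14.8 TPM in the forelimb. CTNNB1 (beta-catenin), which is no member but completes the complex, averaged 972 TPM over the 8 libraries. Transcripts of the adhesion complex were thus abundant.

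Among protocadherins PCDHGC5, of the clustered gamma family, averaged 156 ± 9.38 TPM in the hindlimb and 172 ± 27.3 TPM in the forelimb. Clustered protocadherin genes share constant exons, so the split of its reads from its relatives is uncertain. PCDH18 and PCDH10, delta-2 protocadherins that act in cell movement and axon growth, followed with 97.98 and 25.02 TPM as means of the 8 libraries. CTNNA2, the alpha catenin of neurons, stood at 81.6 TPM, yet its gene model took only 35.2 counts per unit of TPM, against 168 for CDH11 and a median of 75.2 over tested genes. Few counts per unit of TPM go with a short gene model, so its rank by TPM is uncertain. CDH7, FAT1 and CDH2 (N-cadherin) stood at 38.9, 29.3 and 26.7 TPM. In all, 4 members reached 100 TPM, 10 reached 10 TPM, 28 reached 1 TPM and 6 stayed under 1 TPM.

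**Figure D1:**
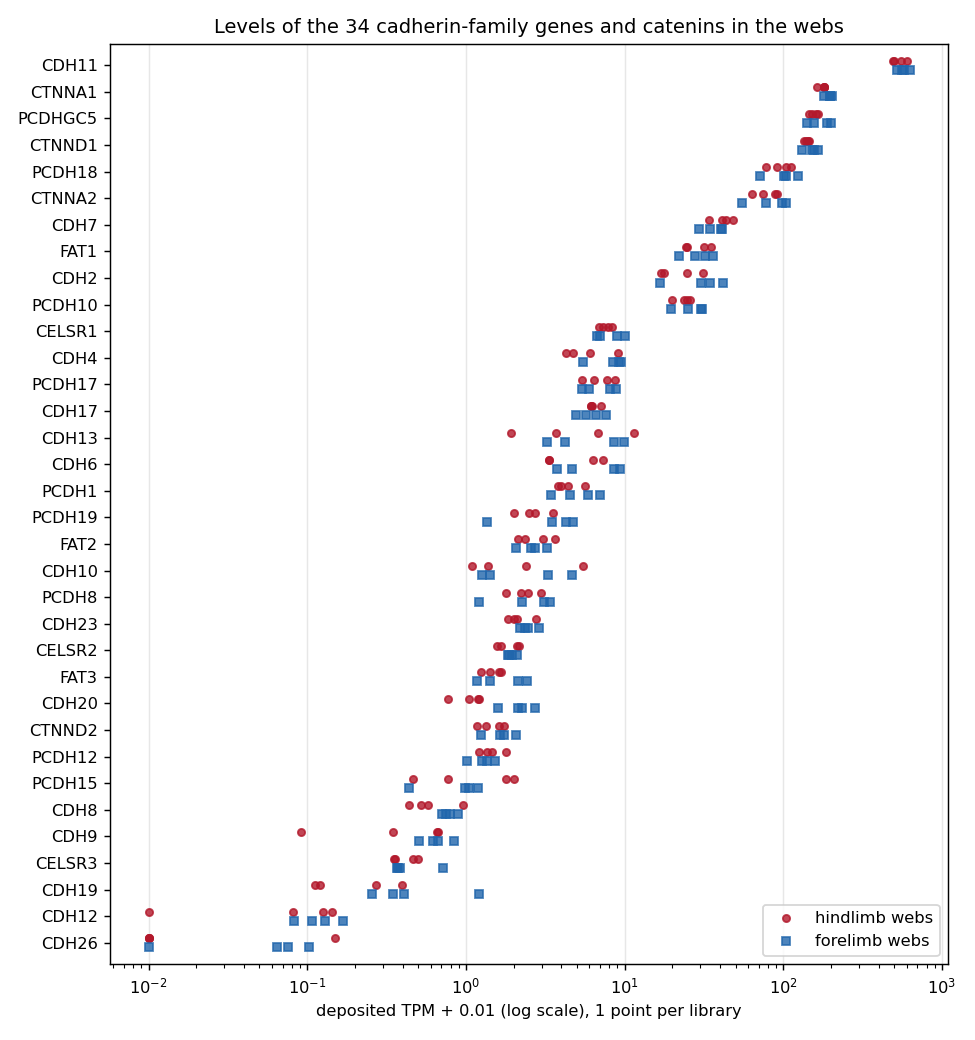
Deposited TPM of the 34 genes on a log axis (0.01 TPM added so that zeros can be drawn), 1 point per library, with hindlimb webs as circles above forelimb webs as squares, ordered by the mean of the 8 libraries. CDH11 stands alone at the top with a mean of 553 TPM, and the points of both limbs overlap for most genes.

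The low end held cadherins known from other tissues. CDH19, a cadherin of Schwann cell precursors, averaged 0.379 TPM over the 8 libraries, and PCDH12, of endothelium, 1.36 TPM. CDH23 and PCDH15, which form the tip links of inner-ear hair cells, averaged 2.32 and 1.08 TPM. CDH26 was not tested, with 47 counts in all, none of them in hindlimb webs 1 to 3 or forelimb web 1. CDH12 had 94 counts and stood at 0 in hindlimb web 2.

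The main comparison asked which members change from web 1 to web 4. A slope with web number, fitted over both limbs with limb as a covariate, passed for 10 of the 33 tested members (30.3%), 7 rising and 3 falling toward web 4 (quasi-likelihood F test of edgeR, with Benjamini-Hochberg adjustment over all genes at 0.05). The background over all 14386 tested genes was 11.1% called, with 4.48% rising and 6.65% falling. The rising members were CDH10, CDH4, CTNNA2, PCDH17, FAT2, PCDH18 and CDH11, and the falling members were CDH13, CDH2 and CDH7. The median slope of the 33 members was 0.02 log2 units per web, against 0 for all tested genes, with 18 positive and 15 negative. Bulk tissue cannot tell fewer cells of a type from less RNA per cell, and this holds for each value given here.

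Of 9 tested type II cadherins 2 rose and 1 fell, and of 2 type I cadherins 1 rose and 1 fell. Of 8 non-clustered protocadherins 2 rose, of 6 giant cadherins 1 rose, of 4 catenins 1 rose, and of 3 other cadherins 1 fell. The 1 clustered protocadherin did not pass. The changes thus lay in several subfamilies and in both directions within the classical cadherins.

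**Figure D2:**
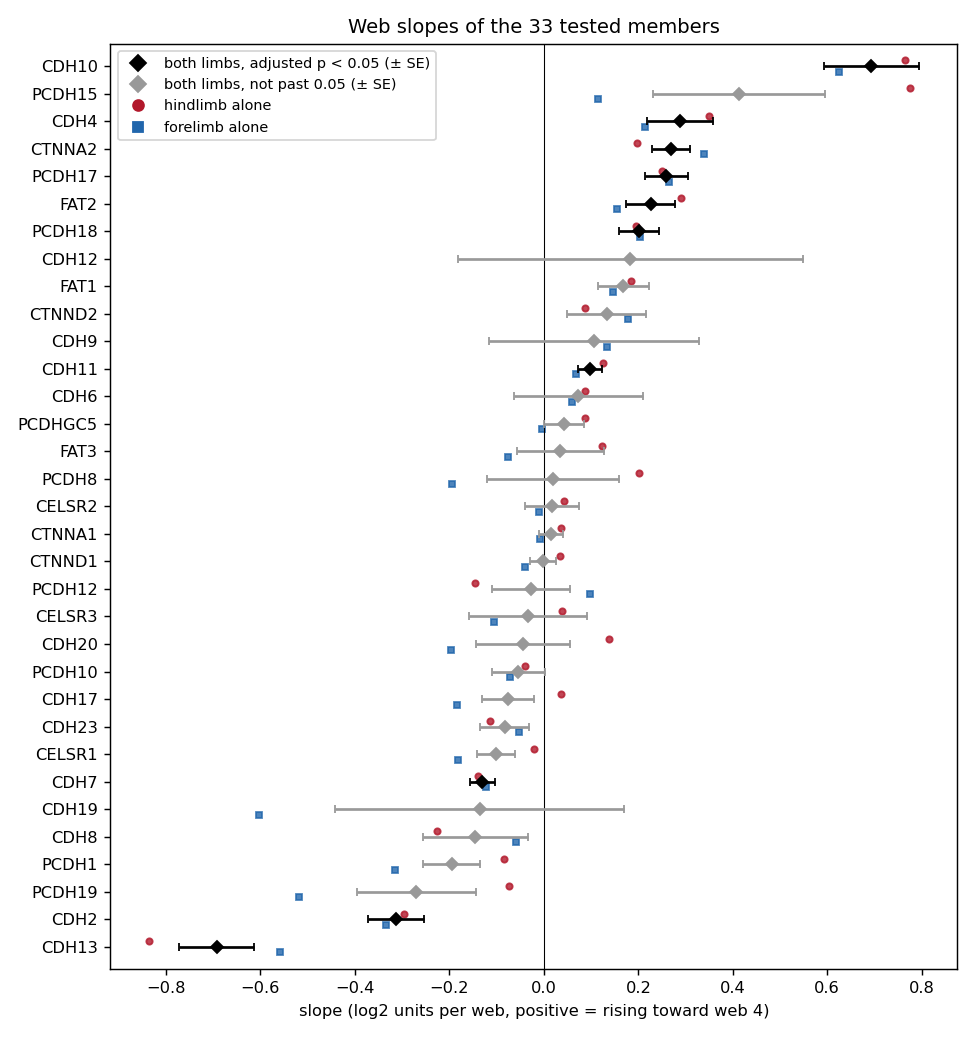
Slopes in log2 units per web for the 33 tested members, fitted over both limbs (diamonds with SE, black where adjusted p was under 0.05), in the hindlimb alone (circles) and in the forelimb alone (squares). CDH10 at 0.69 and CDH13 at -0.69 lie at opposite ends, and 3 rare genes (CDH9, CDH12 and CDH19) lack a point for the hindlimb, CDH12 also for the forelimb, since they fell below the count filter there.

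The steepest rise belonged to CDH10 (ENSPSIG00000007072), a type II cadherin best known from brain. It stood at 1.85, 2.31, 3.90 and 8.90 CPM in hindlimb webs 1 to 4 and at 2.46, 2.01, 5.13 and 7.85 CPM in forelimb webs 1 to 4. Webs 1 and 2 were low and web 4 was the highest in each limb. The slope was 0.69 ± 0.101 log2 units per web (SE; edgeR, adjusted p = 0.0013), a fitted 4.22-fold difference between web 4 and web 1. The slope of the hindlimb alone was 0.76 ± 0.128 and that of the forelimb alone 0.62 ± 0.155. The call ended in the forelimb alone (adjusted p = 0.09) and without web 4 of both limbs (0.057).

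The steepest fall belonged to CDH13 (ENSPSIG00000018164), or T-cadherin, which is held to the membrane by a lipid anchor and has no tail for catenins. It stood at 11.8, 7.61, 3.99 and 2.11 CPM in hindlimb webs 1 to 4 and at 10.4, 8.73, 4.35 and 3.60 CPM in forelimb webs 1 to 4. Each step toward digit V was lower than the one before in each limb. The slope was -0.69 ± 0.0796 (edgeR, adjusted p = 3e-04), with -0.84 ± 0.104 in the hindlimb and -0.56 ± 0.117 in the forelimb alone. CDH13 was past the threshold under all 22 alternatives of the slope, with adjusted p from 1.5e-13 to 0.048. Within a library, the ratio of CDH10 to CDH13 in TPM was 0.0948, 0.202, 0.647 and 2.84 in hindlimb webs 1 to 4 and 0.144, 0.145, 0.784 and 1.44 in forelimb webs 1 to 4. By TPM, CDH13 was thus the more abundant of the pair in webs 1 to 3 and CDH10 in web 4. TPM depends on the length of each gene model, with 61.1 counts per unit of TPM for CDH13 and 92.2 for CDH10. CPM is not scaled for length and cannot rank genes of unlike length. That CDH10 (5.13) was above CDH13 (4.35) by CPM in forelimb web 3 thus does not decide their order. In every web the order rests on the lengths of the gene models, and it is least certain where the ratio is close to 1. CDH13 is also known from blood vessels, and endothelial markers summed to 46.9, 43.2, 47.2 and 48.0 TPM in hindlimb webs 1 to 4 and to 38.5, 46.5, 51.1 and 37.5 TPM in forelimb webs 1 to 4. That sum had no steady direction, but its genes did not move as one, so it does not show which way endothelium went. ERG, with the highest mean TPM of the 6 tested endothelial markers (17.2), rose (slope 0.37 ± 0.0474). PECAM1 and SOX18 fell (-0.278 ± 0.0789 and -0.181 ± 0.0515). TEK, TIE1 and KDR also had negative slopes (-0.215, -0.122 and -0.1), which did not pass. The part of endothelium in the fall of CDH13 was not tested.

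CDH2 (ENSPSIG00000002658) fell as well. Its levels were 56.2, 48.2, 33.5 and 32.1 CPM in hindlimb webs 1 to 4 and 63.5, 73.2, 54.8 and 32.4 CPM in forelimb webs 1 to 4. Web 4 was the lowest in each limb, and forelimb web 2 was above web 1. The slope was -0.31 ± 0.0587 (edgeR, adjusted p = 0.0056), a fitted web 4 level 0.522 times that of web 1. The call ended in the forelimb alone (adjusted p = 0.14) and without web 4 of both limbs (0.069). N-cadherin is also known from nerve and muscle. Nerve and Schwann cell markers (5 of 8 under a symbol) summed to 12.35, 9.73, 5.75 and 5.885 TPM in hindlimb webs 1 to 4 and to 14.5, 11.4, 9.64 and 6.19 TPM in forelimb webs 1 to 4. SOX10, a factor of neural crest and Schwann cells, fell among them (slope -0.29 ± 0.0493; edgeR, adjusted p = 0.003). These markers moved with CDH2, and their part in its fall was not tested. Skeletal muscle markers (5 of 8 under a symbol) summed to 165.1, 56.85, 54.88 and 45.63 TPM in hindlimb webs 1 to 4 and to 102.3, 59.16, 34.23 and 88.22 TPM in forelimb webs 1 to 4. None of the 5 passed over both limbs, but in the hindlimb alone, where CDH2 also passed, MYF5, MYOG and ACTC1 fell (edgeR, adjusted p = 0.014, 0.028 and 0.0029), and their part in the fall of CDH2 was not tested. Cartilage markers summed to 122 to 156 TPM in the hindlimb and 130 to 149 TPM in the forelimb, with COL2A1 rising and SOX9 falling among 6.

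CDH7 (ENSPSIG00000013708), a type II cadherin of migrating neural crest in chick, fell with a shallow slope of -0.13 ± 0.027 (edgeR, adjusted p = 0.01). It stood at 118, 113, 105 and 87.9 CPM in hindlimb webs 1 to 4 and at 97.6, 98.3, 84.3 and 77.5 CPM in forelimb webs 1 to 4. Web 4 was again the lowest in each limb. The call ended without hindlimb web 4 (adjusted p = 0.07), without web 4 of both limbs (0.17), in the forelimb alone (0.29) and with no limb term (0.07).

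CDH11 (ENSPSIG00000011532) rose by little but from a high level. It stood at 1397, 1545, 1645 and 1834 CPM in hindlimb webs 1 to 4 and at 1509, 1626, 1791 and 1710 CPM in forelimb webs 1 to 4. The slope was 0.10 ± 0.0257 (edgeR, adjusted p = 0.032), a fitted 1.23-fold difference between web 4 and web 1. Its adjusted p was the highest of the 10, and the call ended under 9 of 22 alternatives, among them scaling by library size alone (adjusted p = 0.07) and leaving out hindlimb web 1 (0.18), hindlimb web 3 (0.065), hindlimb web 4 (0.16) or forelimb web 1 (0.085). Since CDH2 fell, the ratio of CDH11 to CDH2 in TPM was 15.7, 20.2, 30.9 and 36.0 in hindlimb webs 1 to 4 and 15.0, 14, 20.6 and 33.3 in forelimb webs 1 to 4. In each limb this ratio was highest in web 4.

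CDH4 (ENSPSIG00000009585), or R-cadherin, a type I cadherin close to CDH2, ran opposite to it. It stood at 7.52, 7.35, 10.01 and 15.3 CPM in hindlimb webs 1 to 4 and at 8.79, 14.3, 15.0 and 14.4 CPM in forelimb webs 1 to 4. The forelimb values were low only in web 1, while the hindlimb values were low in webs 1 and 2. The slope was 0.29 ± 0.0693 (edgeR, adjusted p = 0.022). The call ended under 9 of 22 alternatives, among them leaving out hindlimb web 1 (adjusted p = 0.073), hindlimb web 4 (0.15) or forelimb web 1 (0.097), TPM values (0.082) and no limb term (0.063).

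**Figure D3:**
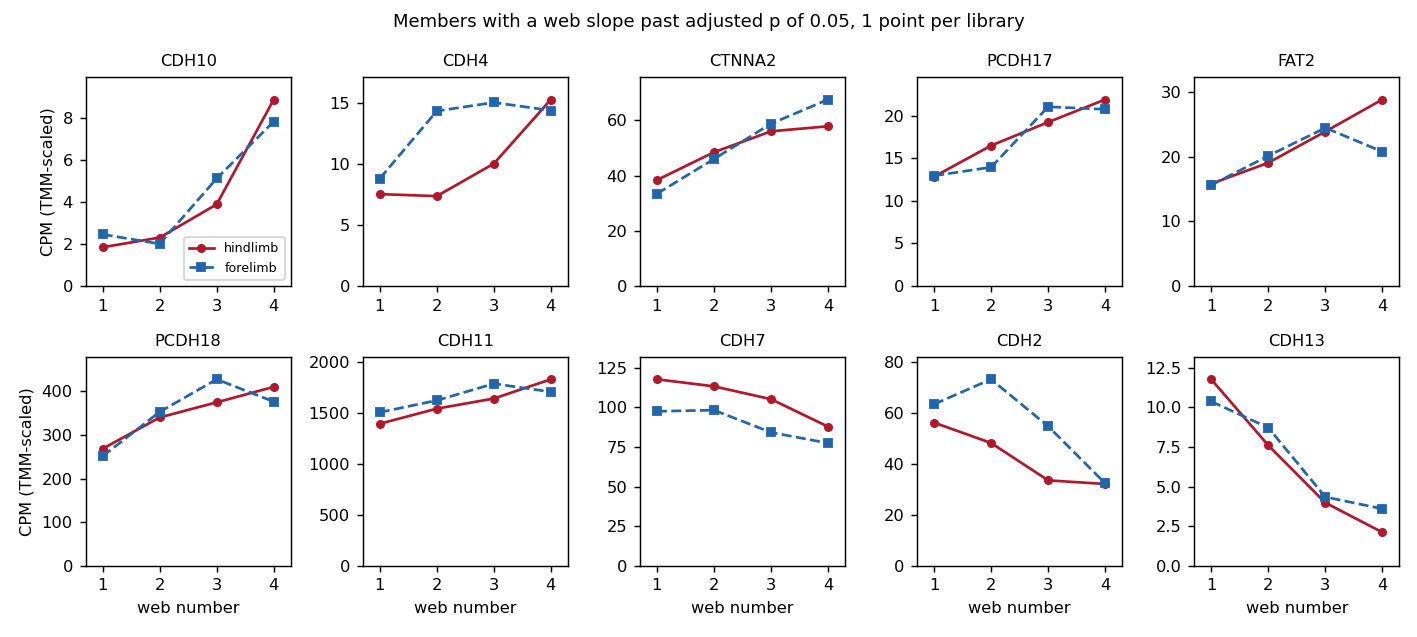
CPM against web number for the 10 members whose slope passed, 1 point per library, hindlimb as circles and solid lines and forelimb as squares and dashed lines, with each axis starting at 0. The lines of both limbs run close together for most genes, whereas CDH7 lies higher and CDH2 lower in the hindlimb at each web. For CDH2 the gap is small in web 4, at 32.1 against 32.4 CPM.

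Among the protocadherins, PCDH17 and PCDH18, delta-2 members that bind the actin-regulating WAVE complex, rose. PCDH17 (ENSPSIG00000007540) stood at 12.8, 16.5, 19.2 and 21.9 CPM in hindlimb webs 1 to 4 and at 12.9, 13.9, 21.0 and 20.7 CPM in forelimb webs 1 to 4 (slope 0.26 ± 0.0455; edgeR, adjusted p = 0.004). PCDH18 (ENSPSIG00000006360) stood at 268, 340, 375 and 410 CPM in hindlimb webs 1 to 4 and at 251, 353, 427 and 376 CPM in forelimb webs 1 to 4 (slope 0.20 ± 0.0422; adjusted p = 0.011). For both genes web 1 was the lowest in each limb. PCDH18 lost its call without hindlimb web 1 (adjusted p = 0.078) or forelimb web 1 (0.062), and both lost it without web 1 of both limbs (0.46 for PCDH18 and 0.12 for PCDH17).

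The other tested delta-2 protocadherins did not pass. PCDH10 had a slope of -0.05 ± 0.0561, PCDH8 of 0.02 ± 0.14 and PCDH19 of -0.27 ± 0.126 (edgeR, adjusted p 0.22 to 0.95). PCDH10 ranged from 30.4 to 41.0 CPM in the hindlimb and from 31.1 to 45.1 CPM in the forelimb. PCDH19, which cooperates with N-cadherin in zebrafish, stood at 3.60, 2.18, 2.65 and 2.92 CPM in hindlimb webs 1 to 4 and at 4.86, 4.23, 3.56 and 1.48 CPM in forelimb webs 1 to 4. A steady decline was thus seen for PCDH19 in the forelimb libraries, but the difference in slope between limbs did not pass (interaction 0.45 ± 0.225; edgeR, adjusted p = 1.0). PCDH1, a delta-1 protocadherin of epithelia, had a slope of -0.20 ± 0.0605 (adjusted p = 0.064). PCDHGC5 had 0.04 ± 0.0418 (adjusted p = 0.57), and passed without forelimb web 4 (0.11, adjusted p = 0.034) and without web 4 of both limbs (0.14, adjusted p = 0.036).

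FAT2 (ENSPSIG00000008111), the giant cadherin of skin that guides epithelial migration, rose with a slope of 0.23 ± 0.0511 (edgeR, adjusted p = 0.016). It stood at 15.8, 19.1, 23.9 and 28.8 CPM in hindlimb webs 1 to 4 and at 15.6, 20.1, 24.5 and 20.8 CPM in forelimb webs 1 to 4. The values of the limbs were close in webs 1 to 3 and lay apart in web 4, where each limb had 1 library. The difference in slope between limbs did not pass (interaction 0.14 ± 0.0979). The call ended under 7 of 22 alternatives, among them leaving out hindlimb web 1 (adjusted p = 0.11), hindlimb web 4 (0.096) or forelimb web 1 (0.066), and log2(TPM + 1) values (0.17). Epidermal markers did not move as one: TP63 and TFAP2A rose (slopes 0.22 ± 0.0477 and 0.14 ± 0.0359), KRT15 fell (-0.81 ± 0.0665), and 5 of the 8 tested did not pass. Their part in the rise of FAT2 was not tested.

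CELSR1, a planar polarity cadherin that orients hair follicles in mouse, had a slope of -0.10 ± 0.0405 and did not pass (edgeR, adjusted p = 0.15). It stood at 60.2, 53.2, 58.8 and 55.8 CPM in hindlimb webs 1 to 4 and at 73.3, 63.1, 50.6 and 51.7 CPM in forelimb webs 1 to 4. CELSR2, CELSR3 and FAT3 had slopes of 0.02 ± 0.0574, -0.03 ± 0.125 and 0.04 ± 0.0926, none of which passed.

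Of the catenins, CTNNA2 (ENSPSIG00000007147) rose. It stood at 38.4, 48.5, 56.1 and 57.9 CPM in hindlimb webs 1 to 4 and at 33.4, 46.0, 58.8 and 67.6 CPM in forelimb webs 1 to 4. Each web was higher than the one before in each limb. The slope was 0.27 ± 0.0395 (edgeR, adjusted p = 0.0014), with 0.20 ± 0.0456 in the hindlimb and 0.34 ± 0.0546 in the forelimb alone. Only without web 1 of both limbs did the call end among 22 alternatives (adjusted p = 0.064). CTNNA1 and CTNND1 had slopes of 0.02 ± 0.0245 and -0.00 ± 0.0279 (adjusted p = 0.76 and 0.98). CTNNA1 ranged from 749 to 822 CPM in the hindlimb and from 832 to 876 CPM in the forelimb, and CTNND1 from 255 to 276 CPM in the hindlimb and from 252 to 292 CPM in the forelimb. Within each limb these catenins varied little between webs. CTNNB1 had a slope of 0.03 ± 0.0251 (adjusted p = 0.53).

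The slope test treats hindlimb and forelimb pools of 1 web as separate samples. They come from the same animals, as do the pools of different webs. An animal effect common to all pools cancels from a slope. One particular to a web and shared by both limbs can make the p-values of this test too small. All 10 called members had a slope of the same sign in each limb. They were chosen by a slope over both limbs, so this is a description and not a check. Fits in 1 limb alone reuse the same libraries and are no independent check either. The hindlimb alone gave 12 called members, all 10 among them, and the forelimb alone gave 2, CDH13 and CTNNA2. Over all genes the same fits called 1199 of 13410 in the hindlimb alone and 376 of 13500 in the forelimb alone. The count was 6 without hindlimb web 1 (3 rising) and 4 without web 1 of both limbs, and 4 rising members were called without hindlimb web 4, without forelimb web 1 and on TPM values. Calls over all genes fell as well, from 1600 of 14386 in the main fit. They were 875 of 14540 (322 rising) without hindlimb web 1 and 681 of 14366 without web 1 of both limbs. Rising calls over all genes were 380 without hindlimb web 4 and 431 without forelimb web 1. Without web 4 of both limbs 11 members were called, beside 1733 of 14472 genes, but only 6 of the 10 were among them. CDH2, CDH4, CDH7 and CDH10 lost their call there. Without hindlimb web 4, 6 of the 10 stayed called, beside 1089 of 14581 genes. On TPM values 4 members rose and 3 fell. Over all genes, TMM gave 644 rising and 956 falling calls, against 482 and 1121 when libraries were scaled by their totals and 377 and 1059 on log2(TPM + 1) values.

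Some members differed among webs although their slope did not pass. With the webs as 4 separate positions, 9 of 33 members passed (background 9.38%), 7 of the 10 above and in addition CDH6 and FAT1. CDH6 (ENSPSIG00000009144), a type II cadherin first known from kidney, stood at 8.97, 5.06, 4.94 and 10.9 CPM in hindlimb webs 1 to 4 and at 12.3, 6.43, 5.33 and 14.3 CPM in forelimb webs 1 to 4. The outer webs were high and the middle webs low in each limb, with no overlap. Its adjusted p for any difference among webs was 0.0018 (edgeR), and 0.00095 to 0.014 over 13 alternatives, while its slope of 0.07 ± 0.137 did not pass. A contrast of outer against middle webs, chosen after these values were seen, gave 1.08 ± 0.13 log2 units (adjusted p = 0.0034; 0.0015 to 0.028 over 13 alternatives). CDH6 was the only member called by it, against a background of 0.709% of all genes (0.257% higher and 0.452% lower in outer webs). The test of 4 separate webs called 4 members without forelimb web 1, where it called 729 of 14525 genes, against 1349 of 14386 in the main fit.

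FAT1 (ENSPSIG00000006082), a giant cadherin that organises actin at cell contacts, had its highest value in web 3 of each limb. It stood at 225, 248, 339 and 310 CPM in hindlimb webs 1 to 4 and at 203, 295, 337 and 273 CPM in forelimb webs 1 to 4. Its adjusted p was 0.012 for any difference among webs (edgeR; 0.0039 to 0.13 over 13 alternatives) and 0.073 for the slope. The slope of 0.17 ± 0.0539 did pass in DESeq2 (adjusted p = 0.0079), in the hindlimb alone (0.032), without forelimb web 4 (0.012) and without web 4 of both limbs (0.001, with a slope of 0.33). The call for any difference ended without hindlimb web 3 (0.082), forelimb web 1 (0.13) or forelimb web 3 (0.095). The outer against middle contrast of FAT1, at -0.28 ± 0.0772, did not pass (adjusted p = 0.14). PCDH8, known as paraxial protocadherin, peaked in web 3 too, with 3.34, 4.47, 5.81 and 4.87 CPM in hindlimb webs 1 to 4 and 4.29, 5.70, 6.36 and 2.43 CPM in forelimb webs 1 to 4, and did not pass (adjusted p = 0.39 for any difference among webs).

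**Figure D4:**
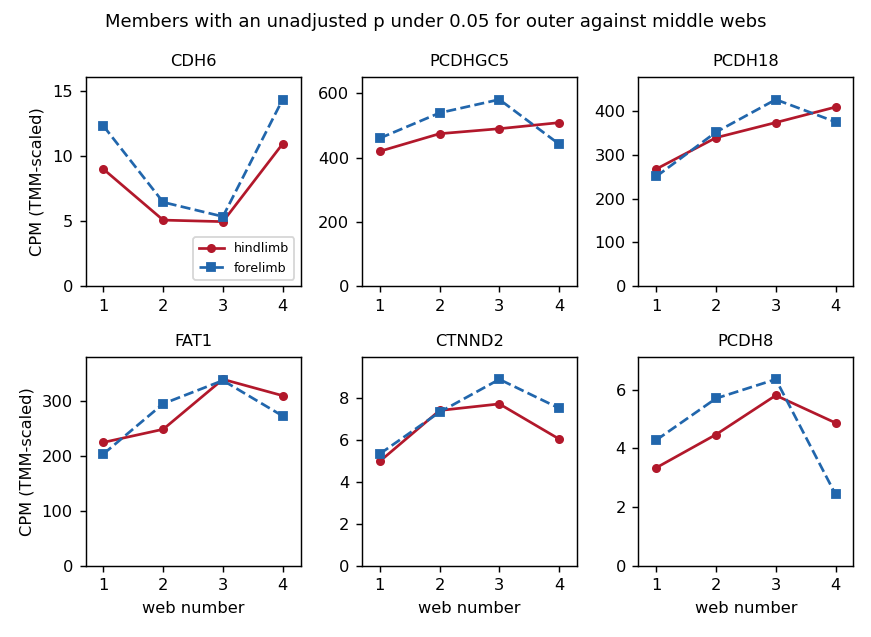
CPM against web number for the 6 members with an unadjusted p under 0.05 for outer against middle webs, hindlimb as circles and forelimb as squares, each axis starting at 0. Such a p was also found for 1968 of all 14386 tested genes, so the figure shows a choice of members and not an excess. Only CDH6 is higher in webs 1 and 4 than in webs 2 and 3 of both limbs, and only its contrast passed over all genes.

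The second comparison set hindlimb against forelimb webs. No member passed in edgeR without a block, where 0.0209% of all genes were called (0.00695% higher and 0.0139% lower in the hindlimb), and 2 members had an unadjusted p under 0.05 (4.04% of all genes). No member passed with web number as a block either, where 0.167% of all genes were called (0.0904% higher and 0.0765% lower), and 5 members had an unadjusted p under 0.05 (8.88% of all genes; lowest adjusted p = 0.2). DESeq2 called 1 member without the block and 2 with it, and limma-voom called none in either fit. Of all 14386 genes DESeq2 called 18 without the block and 146 with it, and limma-voom 3 and 33. Of the 33 members 26 had a lower level in the hindlimb, 78.8% against 51.6% of all tested genes, with a median of -0.10 log2 units against -0.01. The count of lower members was 25 with the block (75.8%, against 50.9% of all tested genes) and 27 on log2(TPM + 1) values. On that TPM scale the median over all tested genes was lower too, at -0.036, against -0.097 for the members. Members share libraries, so this count is a description and not a test.

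CDH20 (ENSPSIG00000007056), a type II cadherin known from neural tissue and singled out after its values were seen, had the largest limb difference after the sparse CDH19. It stood at 2.18, 3.70, 3.55 and 3.12 CPM in hindlimb webs 1 to 4 and at 7.87, 5.94, 6.45 and 4.85 CPM in forelimb webs 1 to 4. The limbs did not overlap. The difference was -0.999 ± 0.222 log2 units without a block (edgeR, adjusted p = 0.96) and -0.998 ± 0.223 with it (adjusted p = 0.2). DESeq2 called it, with adjusted p = 0.036 without the block and 0.0098 with it, and the range over 21 alternatives was 0.0098 to 1.0. The web slope of CDH20 did not pass (-0.04 ± 0.0998).

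CTNNA1 was the other member without overlap, with 771, 749, 807 and 822 CPM in hindlimb webs 1 to 4 and 862, 835, 876 and 832 CPM in forelimb webs 1 to 4, a difference of -0.11 ± 0.0565 (edgeR, adjusted p = 1.0). In CPM, libraries of the limbs did not overlap for 2 members, both lower in the hindlimb, against 2.8% of all tested genes (1.47% higher and 1.33% lower). Also in CPM, the hindlimb library was the lower one in every web for 4 members (CDH2, CDH6, CDH20 and CTNNA1), against 9.07% of all genes. By TPM, web 4 was slightly higher in the hindlimb for CTNNA1 (180.63 against 180.06) and for CDH2 (16.8 against 16.7). The limbs of CTNNA1 thus overlapped in TPM. CDH7 was higher in the hindlimb in each web (8.51% of all genes), by 0.25 ± 0.0564 with the block (edgeR, adjusted p = 0.21; DESeq2 with the block 0.029). CDH2 and CDH6 had differences of -0.38 ± 0.111 and -0.33 ± 0.124 with the block (adjusted p = 0.35 and 0.47). CDH19 had the largest fitted difference, -1.25 ± 0.662, on 8 to 30 counts per hindlimb library and 18 to 97 per forelimb library (adjusted p = 1.0).

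**Figure D5:**
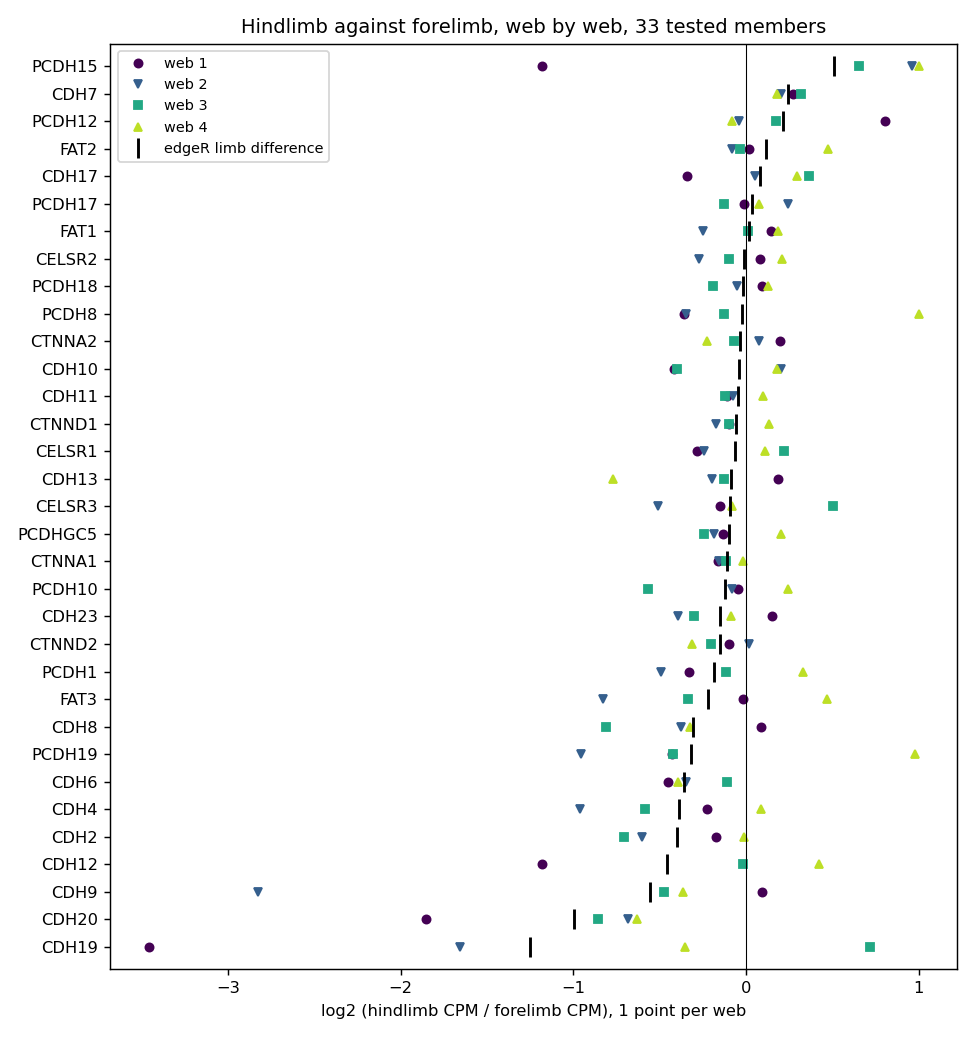
Log2 ratio of hindlimb to forelimb CPM in each web for the 33 tested members, with a bar for the fitted limb difference. For CDH20 all 4 points lie left of 0 and for CDH7 all 4 lie right of it, while the points of most genes straddle 0, and CDH12 lacks a point for web 2, where the hindlimb had no count.

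Slopes were also compared between the limbs. No member passed for the interaction of limb and web (edgeR, 0% of all genes called), and DESeq2 and limma-voom called no member. At an unadjusted p under 0.05 there were 4 members (3.88% of all genes), namely CDH17, CELSR1, PCDH1 and CDH19. CDH17, a cadherin of gut and liver without catenin binding, stood at 14.7, 16.2, 17.7 and 15.6 CPM in hindlimb webs 1 to 4 and at 18.7, 15.6, 13.8 and 12.7 CPM in forelimb webs 1 to 4. The forelimb values ran downward and the hindlimb values did not, with an interaction of 0.22 ± 0.0894 (adjusted p = 1.0).

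Genes that work with cadherins were read from lists, beside the 4.48% of all tested genes that rose and the 6.65% that fell. Of 12 tested junction partners 1 rose and 4 fell toward web 4, and 7 did not pass. NECTIN4, an epithelial nectin, fell with a slope of -0.44 ± 0.0709 (edgeR, adjusted p = 0.0024), and PLEKHA7, which ties p120 catenin to microtubules, fell with -0.31 ± 0.0402 (adjusted p = 0.00069). ARVCF, a p120 relative, fell with -0.35 ± 0.0834. CTNNBIP1, an inhibitor of beta-catenin signalling, rose with 0.18 ± 0.0393. Of 5 desmosome plaque genes, whose cadherin partners were not analysed here, 4 fell and 1 did not pass. DSP (desmoplakin), which anchors keratin to desmosomes, stood at 539, 333, 254 and 255 CPM in hindlimb webs 1 to 4 and at 855, 424, 264 and 253 CPM in forelimb webs 1 to 4 (slope -0.48 ± 0.068, adjusted p = 0.0011). PKP1, PPL and PKP3 fell with slopes of -0.56 ± 0.0675, -0.49 ± 0.0532 and -0.39 ± 0.0802. The 8 tested epidermal markers did not move together beside them. KRT15, a skin keratin, fell, at 1559, 1005, 424 and 370 CPM in hindlimb webs 1 to 4 and 2327, 1232, 485 and 401 CPM in forelimb webs 1 to 4, whereas TP63 and TFAP2A rose and 5 did not pass. The part of skin in the fall of the desmosome genes was not tested.

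Of 13 planar polarity genes 2 rose and 11 did not pass, against 11.1% of all tested genes called in either direction. The rising genes were WNT5A, a ligand that orients limb mesenchyme, with a slope of 0.16 ± 0.0376, and its receptor ROR2 with 0.15 ± 0.0384 (edgeR, adjusted p = 0.018 and 0.029). Of 9 regulators of cadherin switching 1 rose and 2 fell. TWIST2, a mesenchymal factor, rose with 0.40 ± 0.0511, SNAI1, a repressor of E-cadherin, fell with -0.31 ± 0.071, and GRHL3, a factor of the skin barrier, fell with -0.63 ± 0.0669 (adjusted p = 0.00056, 0.017 and 0.00021). The other 6 did not pass.

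Gene order was read from the RefSeq table of assembly ASM4963464v1, where 30 of the 34 members matched by symbol. Some members are neighbours with no protein-coding gene between them: CDH10 and CDH12, CDH7 and CDH19, CDH4 and CDH26, and PCDH18 and PCDH10. Leaving aside CDH4 and CDH26, of which CDH26 was not tested, none of these pairs had a web slope that passed in both members. CDH12 and CDH19 were sparse, with 94 and 245 counts in all and slope SEs of 0.365 and 0.306. Their pairs could thus hardly have shown a shared call. CDH20, CDH6, CDH9 and CDH10 lie in that order with 2 to 4 protein-coding genes between successive members. CDH10 rose, CDH6 was high in the outer webs, and the slope of CDH20 did not pass. CDH9 was sparse, with 412 counts in all, and its slope did not pass (0.11 ± 0.222). Its outer against middle contrast was 0.97 ± 0.503, beside 1.08 ± 0.13 for CDH6, and did not pass either (edgeR, adjusted p = 0.43). With so few counts, these values cannot tell whether CDH9 was like CDH6.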

How the data were processed

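RNA of 8 pooled web libraries was sequenced as paired-end Illumina reads, per the labels' protocols. HISAT2 2.2.1 and StringTie 2.1.7 are named in the submitters' processing notes. The sources used here do not give the genome build, annotation or strand setting. Without strand, reads of overlapping genes cannot be told apart. The authors deposited whole-number counts per gene, not normalised, and TPM per gene with symbols. TPM keeps no depth. Among 20472 deposited values of 1 to 40, multiples of 4 made up 35.5%, where 25% would be even. Counts therefore do not stand for single read pairs, and intervals for counting error were left out. Each library held 53116512 to 65849337 counts, and genes close to the filter are the least precise.

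The count tests used edgeR 4.0.16 under R 4.3.3, with DESeq2 1.42.0 and limma 3.58.1 as alternatives. The filter filterByExpr (minimum count 10, minimum total 15, limb as group) left 14386 of 19328 genes, and TMM scaled the libraries. Every test was fitted on all tested genes and adjusted over all of them at 0.05. Residual degrees of freedom were 5 for the slope, 6 for the limb difference (3 with the block), 4 for the interaction and 3 for 4 separate webs. Standard errors are the log2 value divided by the root of F. Limb differences are hindlimb minus forelimb. Tests were tried on counts simulated as independent libraries, so that trial cannot show how they behave for pools that share animals.

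Hindlimb and forelimb pools share animals, per the labels. Same-numbered webs deviated together from their limb's mean (r = 0.498, 0.189, 0.242 and 0.327). Some neighbouring webs did so too, with 0.184 for hindlimb web 1 and forelimb web 2 and 0.237 for hindlimb web 4 and forelimb web 3. Webs 2 and 3 of opposite limbs gave -0.0799 and -0.142. Taking deviations from the limb's mean removes an effect common to all pools of a limb. These values cannot tell shared position from effects of these animals that are particular to a web. Web number was the block of the alternative limb fit, and the main limb fit had no block.

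The members and lists were chosen with earlier results of these data known. Named were members that passed a test, the 8 of highest TPM and a set of well-known members. The result of 1 marker gene is not reported here.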

Additional observations from a re-analysis of the deposited data

Results flagged for a closer look

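In 66 groups of 4 webs (33 members in each limb), 3 had 1 library set apart from the others by Dixon's test at 95%, and chance flags about 1 group in 20. The 4 libraries of a limb are different positions, so a single high or low web need not be an outlier. CDH4 was lowest in forelimb web 1, at 8.79 CPM against 14.3 to 15.0 CPM in forelimb webs 2 to 4. CELSR3 was highest in forelimb web 2, at 5.32 CPM against 2.776 to 2.9995 CPM in the other forelimb webs. CDH19 was highest in forelimb web 1, at 1.62 CPM against 0.329 to 0.521 CPM in the other forelimb webs.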

How the results depend on the processing

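For the 19 members named for web position, 347 of 418 slopes under alternatives kept direction and side of the threshold, 40 lost the call, 6 gained one and 25 changed sign. The 10 called members were all still called with RLE size factors, no filter, a mean of at least 1 CPM, a robust prior, DESeq2 and limma-voom. Called members were 10, against 2 in the forelimb alone, 4 without web 1 of both limbs, and 6 to 12 with 1 library left out. Over all genes the calls were 1600, against 376, 681, and 875 to 1889 in the same settings. Rising members were 7, against 4 on log2(TPM + 1) and on log2(TPM + 0.1), 1 in the forelimb alone, 1 without web 1 of both limbs, and 3 to 9 with 1 library left out. Over all genes the rising calls were 644, against 377, 370, 129, 286, and 322 to 842 in the same settings. Falling members were 3, against 1 in the forelimb alone, where the falling calls over all genes were 247, against 956 in the main fit. For the limb difference 0 members were called with web number as replicate block, 1 by DESeq2 and 2 by DESeq2 with that block (chosen after seeing the data, as were the outer contrast and the alternatives of the test of 4 separate webs). The block changed no other call of a member in edgeR. The count for 4 separate webs was 9, and 4 to 12 with 1 library left out, and for the outer contrast it was 1, and 1 to 2. Over all genes the counts were 1349, and 729 to 1593, for 4 separate webs. For the outer contrast they were 102, and 26 to 200. Slopes that changed sign belonged to members that did not pass. The slope of CDH6 was -0.52 without web 4 of both limbs, and that one passed (adjusted p = 0.012, in a range of 0.012 to 0.93), and -0.087 to 0.224 with 1 library left out. That of PCDH8 was -0.012 in limma-voom, -0.018 and -0.035 on log2(TPM + 1) and log2(TPM + 0.1), -0.20 in the forelimb alone, -0.25 without web 1 of both limbs and -0.11 to 0.23 with 1 library left out. That of PCDH10 was 0.010 without web 4 of both limbs and -0.091 to 0.011 in the leave-outs. PCDHGC5 had -0.004 in the forelimb alone and -0.043 without web 1 of both limbs. CTNNA1 had -0.002 with library size alone, -0.010 on both TPM scales and -0.008 in the forelimb alone. CTNND1 had 0.035 in the hindlimb alone, 0.021 without web 4 of both limbs and -0.024 to 0.031 in the leave-outs. The cause of these shifts was not tested.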
